A study of Mus musculus with 16 samples.

Results

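The comparison described here is the effect of the antisense oligonucleotide ASO1 on the transcriptome of Dnm2SL/+ muscle. An antisense oligonucleotide is a short synthetic nucleic acid that pairs with a chosen transcript, and ASO1 was designed to lower Dnm2. Its members were all the RNA sequencing libraries of tibialis anterior, a fast muscle of the lower leg, that the labels give as Dnm2SL/+ with ASO1 (n = 4) or Dnm2SL/+ with ASO Control (n = 6), which made 10 of the 16 libraries of the series. All mice were C57BL/6N males aged 7 weeks. Dnm2SL/+ mice carry 1 mutant and 1 normal copy of Dnm2 and are a model of autosomal dominant centronuclear myopathy. The other 6 libraries came from WT mice, 4 with ASO Control and 2 with ASO1, and served as the reference level. Both Dnm2SL/+ groups carried the same mutation and both were given an oligonucleotide, so no library here comes from an untreated mouse. The dose, the route and the dates of injection are not given in the sources used here. The series speaks of groups of mice, but nothing ties each library to its own mouse, so the p-values measure the spread between these libraries. Throughout, "ASO1 libraries" and "control libraries" are those of Dnm2SL/+ mice unless WT is written.

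Dnm2 encodes dynamin 2, a large GTPase that assembles around the neck of a budding membrane and cuts it, and that works in endocytosis, at the actin cytoskeleton and at the membranes of muscle fibres. Mutations that make the protein too active cause the dominant form of centronuclear myopathy, in which nuclei lie in the centre of the fibre and the triads, the junctions of T-tubule and sarcoplasmic reticulum that couple excitation to contraction, are disordered. Amphiphysin 2 (Bin1) and myotubularin (Mtm1), which are lost in other forms of the disease, work on the same membranes. The question put to the data was which genes change in mutant muscle when Dnm2 is lowered.

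Dnm2 itself was lower in the ASO1 libraries. The gene (ENSMUSG00000033335) lies on the plus strand of chromosome 9 at 21424908 to 21507759 in GRCm38 and overlaps Tmed1 on the other strand. Its level was 28.2, 35.2, 26.6 and 32.2 CPM (the count scaled to library size, after TMM) in ASO1 libraries 1 to 4. In the 6 control libraries the lowest was 35.2, the median 60.5 and the highest 65.1 CPM. Control 6 was the lowest and lay within the ASO1 range, and the other 5 controls, from 46.4 CPM upward, lay above every ASO1 library. The mean was 30.6 ± 3.88 CPM with ASO1 (SD, n = 4) and 54.9 ± 11.7 CPM with ASO Control (SD, n = 6). The quasi-likelihood test of edgeR gave a log2FC of -0.85 ± 0.15 (SE; 95% interval -1.16 to -0.53; adjusted p = 0.0016), so that 55.6% of the control level was left. An exact permutation test of the 10 values, with 1 tail doubled, gave p = 0.019. The smallest p that this doubling allows for 4 against 6 libraries is 0.00952.

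**Figure D1:**
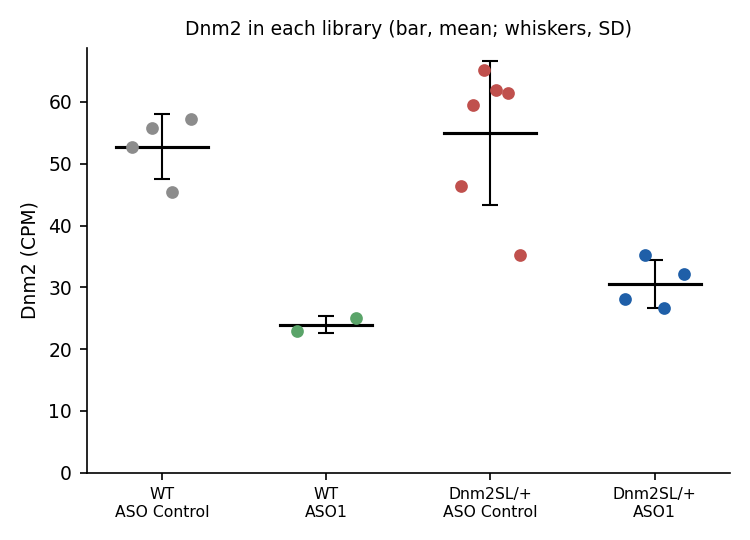
Dnm2 level (CPM, y axis from 0) in every library of the 4 groups (x axis), with points for libraries, a bar for the mean and whiskers for the SD. The 4 Dnm2SL/+ ASO1 libraries sit between 26.6 and 35.2 CPM, and of the 6 Dnm2SL/+ ASO Control libraries only number 6, at 35.2 CPM, reaches that range.

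The level left was also below that of WT mice given ASO Control. There Dnm2 was at 52.8 ± 5.24 CPM (SD, n = 4), and the ASO1 libraries differed from it by a log2FC of -0.79 ± 0.16 (adjusted p = 0.014). In the WT mice given ASO1 it was at 23.0 and 25.0 CPM in the 2 libraries. The change in WT was -1.14 ± 0.20, with an adjusted p of 0.22. The interaction of genotype and ASO1, which tests whether the change differs between Dnm2SL/+ and WT, was 0.29 ± 0.24 (adjusted p = 0.55) and did not pass the threshold. Counts per gene do not tell the mutant from the normal transcript, so the share of each was not measured.

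All libraries of the series were of like depth, with 30148163 to 33667052 counts assigned to genes. Comparison of all 120 pairs of libraries found none that agreed within sampling noise (chi-squared per degree of freedom 10.8 to 211). The share of counts from mitochondrially encoded genes was 11.3% to 13% in the ASO1 and 9.02% to 10.8% in the control libraries, and the 20 most counted genes took 34.2% to 35.9% and 30.2% to 32.0%. Neither range overlapped (exact permutation test with 1 tail doubled, p = 0.00952 for each, the smallest that the doubling allows). With those 20 genes removed before scaling, 2296 genes were called. The tissue label fits its markers, with the fast myosin Myh4 at 16840 to 30280 CPM and the slow myosin Myh7 at 4.44 to 89.5 CPM in the 10 libraries. In a principal component analysis of the 10 libraries, the first component held 35.9% of the variance and separated the groups, with the ASO1 libraries from -37.6 to -22.5 and the controls from 2.98 to 37.8. Control libraries 1 and 6 were the nearest to the ASO1 group, at 4.16 and 2.98. Counts of list members that moved by more than 1.5 times without both are given with their lists or after them.

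Across the 15649 genes tested, 2351 passed an adjusted p of 0.05 (15%), of which 1089 were higher (6.96%) and 1262 lower (8.06%) with ASO1. With a log2FC beyond 1 in size required as well, 96 genes were higher and 397 lower. The median log2FC of all genes was 0.0052. For 1774 genes (11.3%) the ranges of the 4 ASO1 and the 6 control libraries did not overlap, with ASO1 above for 798 and below for 976. Leaving out 1 library at a time gave between 1651 and 2755 called genes. Without controls 1 and 6 the number was 3168 (1621 higher, 1547 lower). That alternative was chosen after seeing the data and takes out the controls nearest to the ASO1 group. Higher counts there follow in part from the choice, and nothing is read from them as support. The same holds wherever both are left out below.

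**Figure D2:**
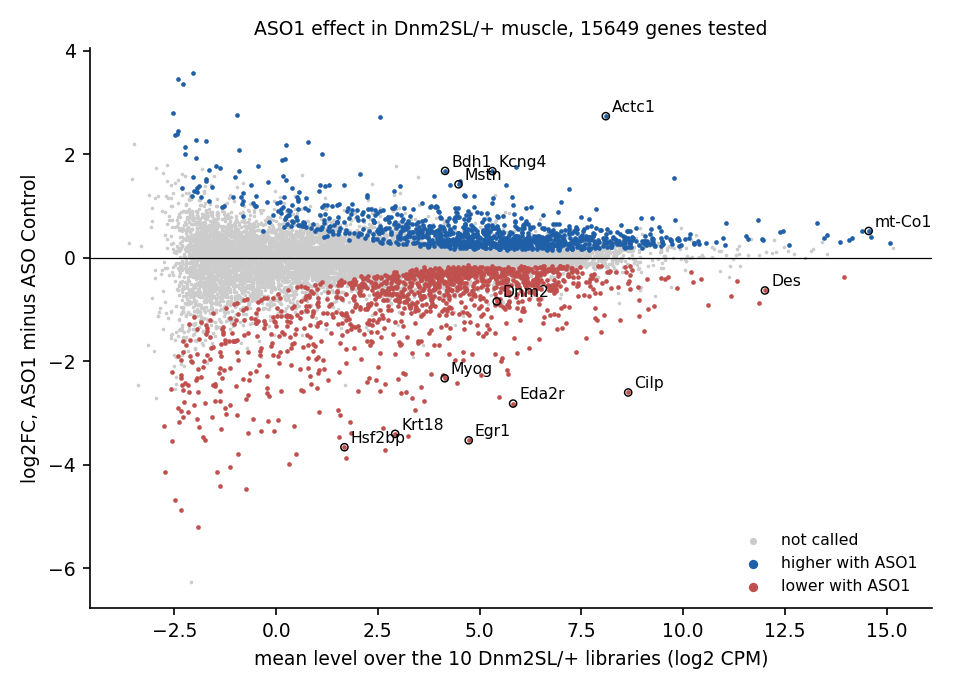
The log2FC of ASO1 against ASO Control in Dnm2SL/+ muscle (y axis) against the mean level over the 10 libraries in log2 CPM (x axis), 1 point per gene for 15649 genes. Blue points are the 1089 called genes that were higher with ASO1 and red points the 1262 that were lower, and the circled genes are named in the text.

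To describe the largest movements, called genes with a mean of at least 1 on the log2 CPM scale and groups that did not overlap were ranked by log2FC, and the 15 at each end were taken. The lack of overlap in them is therefore a condition of their choice. The largest rise was that of Actc1, the alpha-actin of cardiac muscle, which is also the actin of developing skeletal fibres. Actc1 was at 667, 1141, 793 and 1271 CPM in the ASO1 libraries, against a lowest of 65.5, a median of 107 and a highest of 359 CPM in the controls. Every ASO1 library was above every control, and the fitted difference was 6.65-fold (log2FC 2.73 ± 0.44, adjusted p = 0.0011). WT mice given ASO Control had 428 ± 205 CPM (SD, n = 4), and the difference of the ASO1 libraries from them did not pass the test (log2FC 1.18 ± 0.49, adjusted p = 0.17).

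Mstn encodes myostatin, a secreted inhibitor of muscle growth made by the fibres. Its level was 46.3, 31.2, 53.7 and 33.8 CPM with ASO1 and 10.9 to 21 CPM, with a median of 14, in the controls. The ASO1 libraries were higher by 2.67-fold (log2FC 1.42 ± 0.21, adjusted p = 0.00067). The mean in WT mice given ASO Control was 57.6 ± 16.7 CPM. Among 24 tested genes of the list of myostatin and growth factor signalling, Mstn was the 1 that rose and 3 fell, among them Fst and Gdf11. Fst encodes follistatin, which binds and blocks myostatin, and it was at 3.78, 3.43, 5.46 and 2.09 CPM with ASO1 against 6.2 to 19.3 CPM in the controls (log2FC -1.86 ± 0.36, adjusted p = 0.0029). Gdf11 encodes the ligand most like myostatin, and it fell by 1.97 ± 0.42 on the log2 scale (adjusted p = 0.0053). The ligand and its blocker thus moved in opposite directions at the RNA level. Inha, which encodes the alpha subunit of inhibin, a hormone of the same ligand family, was at 11.4, 12.7, 8.21 and 19.6 CPM against 4.54 to 5.76 CPM (log2FC 1.29 ± 0.23, adjusted p = 0.0016).

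Several of the other large rises were metabolic genes. Bdh1 encodes the mitochondrial dehydrogenase that interconverts the ketone bodies, and it stood at 49.1, 46.4, 31.9 and 34.8 CPM with ASO1 against 5.22 to 27.4 CPM (log2FC 1.68 ± 0.45, adjusted p = 0.02). Idh2, the mitochondrial NADP-dependent isocitrate dehydrogenase, rose by 1.07 ± 0.24 and Dgat2, which makes triglyceride, by 1.16 ± 0.31. Ppargc1a encodes PGC-1 alpha, a coactivator that raises mitochondrial genes, and it was at 54.7, 44.8, 116 and 39.6 CPM against 24.8 to 37.1 CPM (log2FC 1.05 ± 0.26, adjusted p = 0.013). Some of these calls hung on 1 library. Without ASO1 library 1 the adjusted p was 0.055 for Bdh1 and 0.0609 for Dgat2, and without ASO1 library 3 the log2FC of Ppargc1a was 0.59 with an adjusted p of 0.0558. Kcng4, a modifying subunit of voltage-gated potassium channels, was at 68.2, 82.4, 87.7 and 116 CPM against 12 to 62.7 CPM (log2FC 1.67 ± 0.35, adjusted p = 0.0046). The remaining large rises were those of Pla2g7, Lrtm1, Car4, Mical2, Rps6ka1, Kif26a and Adcy1, with log2FC from 1.04 to 1.41.

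The falls were larger than the rises. Hsf2bp, known for its part in meiotic recombination, had the largest, at 0.428, 0.33, 1.08 and 1.08 CPM with ASO1 against a lowest of 3.84, a median of 9.93 and a highest of 13.2 CPM in the controls (log2FC -3.66 ± 0.38, adjusted p = 5.5e-05). Egr1, an immediate early transcription factor, was at 6.51, 5.64, 9.62 and 7.61 CPM against 17.8 to 170 CPM (log2FC -3.53 ± 0.62, adjusted p = 0.0017). The controls of Egr1 differed widely among themselves. Sox11, a transcription factor of developing tissues, and Zfp365, a zinc finger gene, fell by 3.39 ± 0.45 and 3.46 ± 0.61. Eda2r, a receptor for ectodysplasin A2, was at 18.2, 15.3, 26.3 and 14.1 CPM with ASO1 and from 62 to 178 CPM in the controls. It was lower by 2.82 ± 0.32 (adjusted p = 9e-05), and WT mice given ASO Control had 14 ± 4.80 CPM. Dtl, which marks replication proteins for destruction, Il20rb, an interleukin receptor subunit, and Gldn, which encodes gliomedin, fell by 2.94, 2.70 and 2.58 on the log2 scale.

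**Figure D3:**
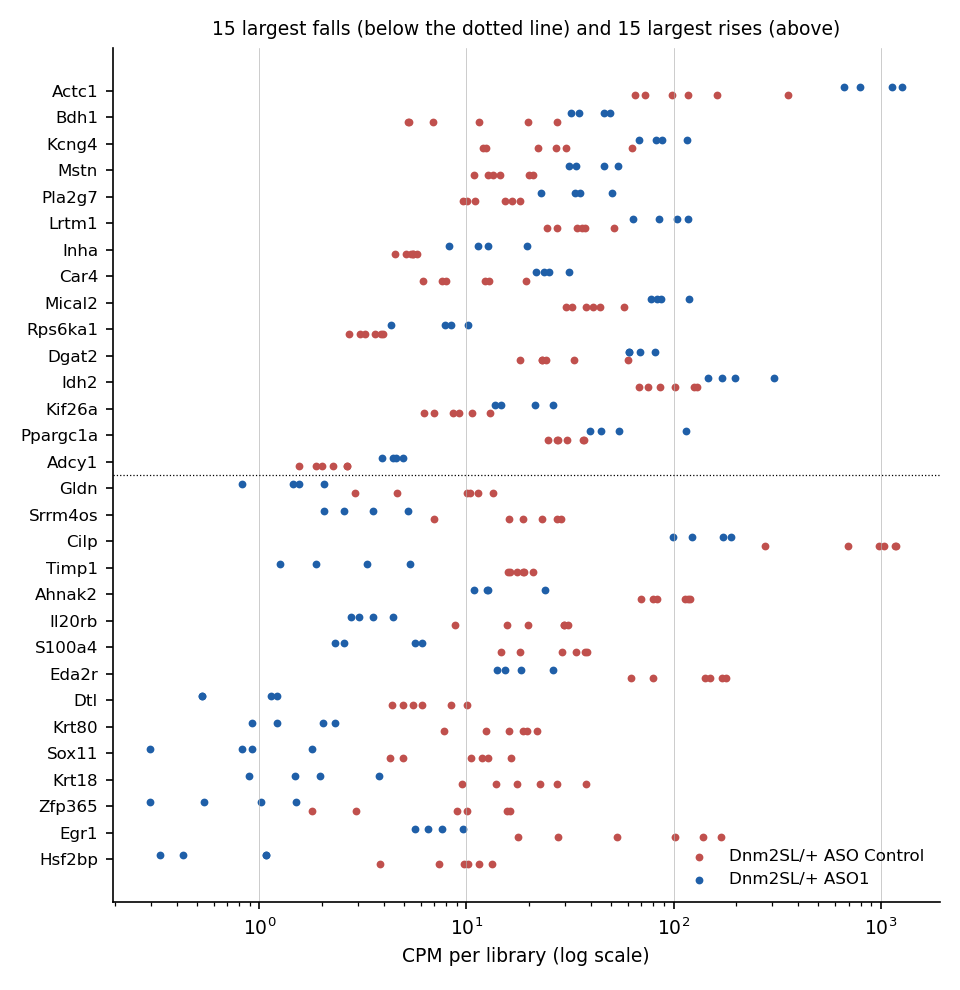
The level in CPM (x axis, log scale) in each Dnm2SL/+ ASO Control library (red) and each Dnm2SL/+ ASO1 library (blue) for the 15 largest falls, below the dotted line, and the 15 largest rises, above it. The groups do not overlap for any of these genes because this was a condition of choice, and the controls of Egr1 spread from 17.8 to 170 CPM while the ASO1 libraries span 5.64 to 9.62 CPM.

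Known gene groups were then read through 41 lists, each described by how many of its members were called in each direction and by their median, beside the 6.96% and 8.06% of all genes that were higher and lower. Genes can be in several lists. The lists were chosen with earlier results of these data known, so their shares and ranks may in part be set by that choice. In these bulk libraries, fewer cells of a kind and less RNA per cell cannot be told apart. Of the 40 counts of 1 to 4 called members, 28 moved by more than 1.5 times when some 1 library was left out, so only the larger counts are followed library by library.

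**Figure D4:**
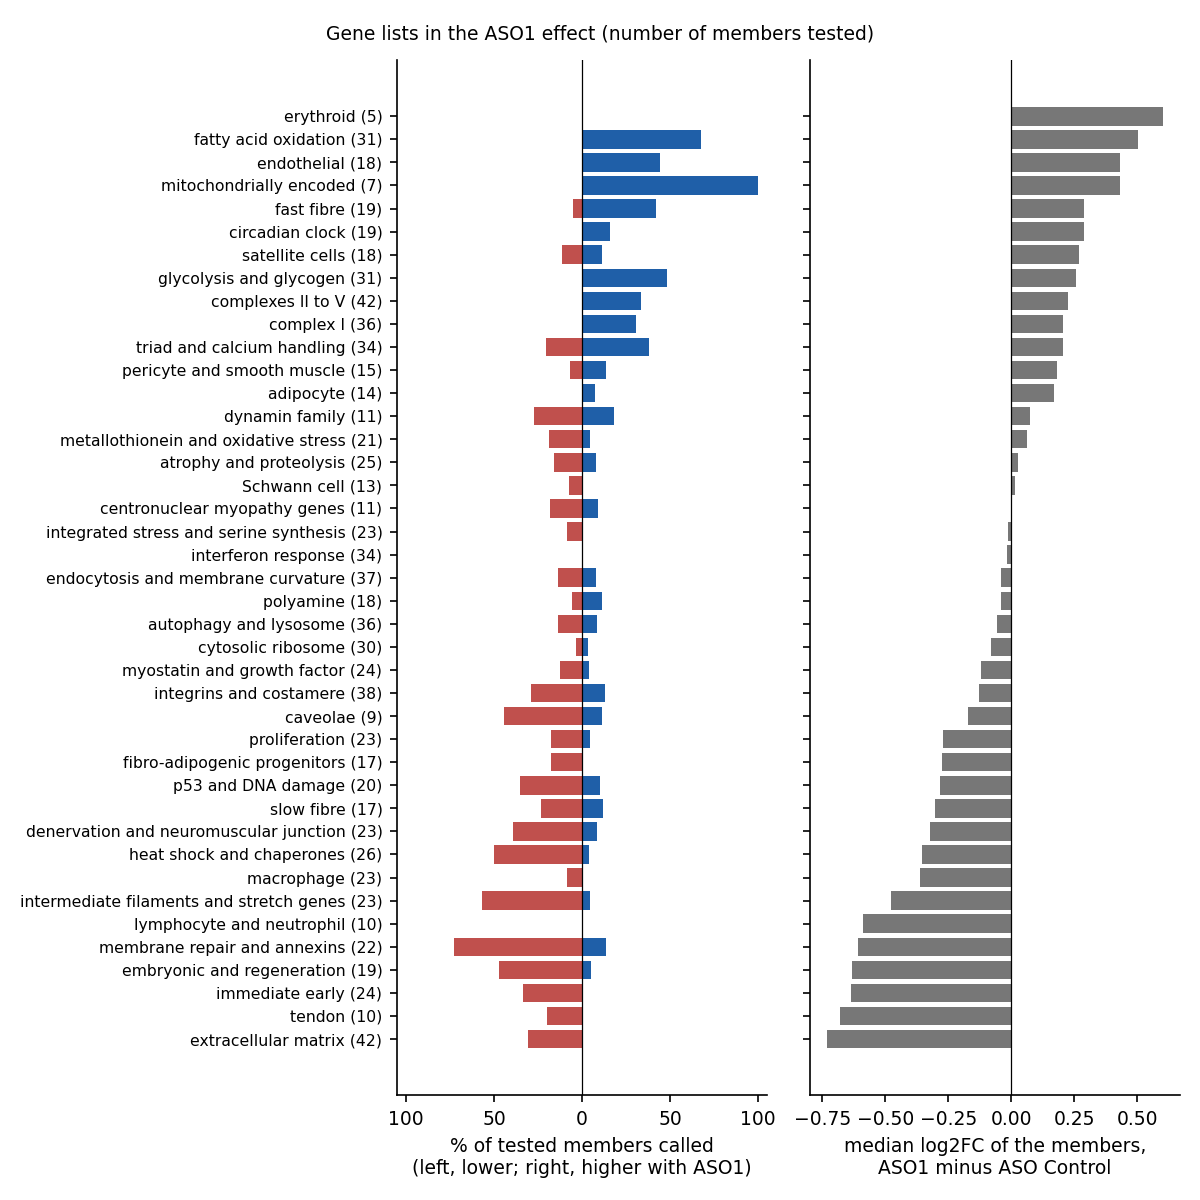
For each of the 41 gene lists (rows, with the number of members tested), the left panel gives the percentage of members called lower (left of 0) or higher (right of 0) with ASO1, and the right panel the median log2FC. The membrane repair and annexin list has the largest share of falls, with 16 of 22 members, and the mitochondrially encoded genes and fatty acid oxidation the largest shares of rises, with 7 of 7 and 21 of 31.

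Among the genes nearest to dynamin 2, calls went in both directions. Of 11 dynamin family members tested, 2 rose and 3 fell, Dnm2 included, beside the 15% of all genes that were called. Dnm1, the dynamin of nerve terminals, was at 6.15, 6.27, 6.31 and 6.78 CPM with ASO1 against 9.34 to 12.9 CPM in the controls, so that the groups were apart (log2FC -0.84 ± 0.18, adjusted p = 0.0057). Dnm3 did not pass the test (0.37 ± 0.16, adjusted p = 0.14). Opa1 and Mfn1, the GTPases that fuse the inner and the outer mitochondrial membranes, rose by 0.22 ± 0.04 and by 0.37. Of 11 genes linked to centronuclear myopathy, Speg rose and Dnm2 and Bin1 fell, and without controls 1 and 6 the falls were 4. Bin1, which bends the T-tubule membrane, was at 606, 630, 655 and 632 CPM against 747 to 911 CPM (log2FC -0.42 ± 0.07, adjusted p = 0.0012). Speg, a kinase of the triad, was at 422, 423, 444 and 430 CPM against 316 to 392 CPM (0.27 ± 0.06, adjusted p = 0.0074). Both were apart from the controls in every library. Mtm1 was at 17.7 to 21.5 CPM against 16.9 to 19.8 CPM and was not called (0.14 ± 0.06, adjusted p = 0.17). The endocytosis and membrane curvature list had 3 rises and 5 falls among 37 genes with a median of -0.04, and the falls were 3 without any of controls 2 and 3 and ASO1 libraries 2 and 4. Its named members were the scaffold Itsn1 (0.30 ± 0.06), cortactin or Cttn (-0.43 ± 0.07), Ehd4 (-0.68) and Pacsin3 (-0.26).

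Caveolae are small pits of the surface membrane. Of 9 caveolar genes 4 fell and 1 rose. Cav3, the caveolin of muscle, was at 52.5, 59.1, 55.6 and 59.9 CPM with ASO1 and 83 to 93.5 CPM in the controls (log2FC -0.66 ± 0.07, adjusted p = 6e-05). Cavin4, a coat protein of muscle caveolae, fell by 0.98 ± 0.16, and Ehd2, an ATPase at the caveolar neck, rose by 0.51 ± 0.10. The ranges of both were apart from those of the controls.

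Repair of a torn surface membrane relies on dysferlin, annexins, S100 proteins and the ligase Trim72. This list had the largest share of falls of the 41, a rank that depends on how the lists were chosen. Of 22 tested, 16 fell and 3 rose, and the median log2FC was -0.61. All ASO1 libraries lay below all controls for 15 of the 22, beside 976 of all 15649 genes. Trim72, which seals the lesion, was at 232, 231, 239 and 240 CPM with ASO1 and 314 to 392 CPM with ASO Control. It fell by 0.59 ± 0.06 (adjusted p = 4.9e-05), and WT mice given ASO Control had 226 ± 3.13 CPM, from which the ASO1 libraries did not differ past the threshold (log2FC 0.06 ± 0.06, adjusted p = 0.63). Dysf, dysferlin itself, was at 100 to 117 CPM against 130 to 189 CPM (-0.61 ± 0.10, adjusted p = 0.00087). Anxa2, an annexin that gathers at the tear, was at 36.3, 37.2, 61 and 52.7 CPM against 93.2 to 176 CPM (-1.58 ± 0.20, adjusted p = 0.00025). Ahnak2, a giant scaffold of the same membrane, had the second largest fall of the list, from 69.8 to 120 CPM down to 12.6, 10.8, 23.8 and 12.8 CPM (-2.70 ± 0.29, adjusted p = 6e-05). Unlike Trim72, Ahnak2 stayed above WT mice given ASO Control, which had 4.02 ± 1.28 CPM (log2FC 1.90 ± 0.31, adjusted p = 0.0061). S100a4 fell the most (-2.78 ± 0.42), but it shares exon sequence with another gene on the same strand and its count is uncertain. The same holds for all 11 genes named by rule with such an overlap, which are not each marked where their values are given. The summed level of the list was 1890, 1817, 2154 and 1927 CPM in the ASO1 libraries and 2451 to 3207 CPM in the controls, and 1718 to 1916 CPM in WT mice given ASO Control. No single library moved the 16 falls by more than 1.5 times.

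Intermediate filaments and genes induced by stretch of the fibre showed a like pattern, with 13 of 23 falling and 1 rising (median -0.48). Des, desmin, the main filament of the muscle fibre, was at 3196, 3109, 3244 and 3161 CPM against 4243 to 5238 CPM, a narrow ASO1 range below every control (log2FC -0.63 ± 0.07, adjusted p = 5.3e-05). Nes, nestin, which accompanies desmin in young and regenerating fibres, was at 123, 157, 156 and 130 CPM against 248 to 454 CPM (-1.43 ± 0.15, adjusted p = 4.9e-05). Nes remained above WT mice given ASO Control, at 71.4 ± 3.66 CPM (log2FC 0.99 ± 0.15, adjusted p = 0.0049), whereas desmin did not differ from them past the threshold (0.11 ± 0.07, adjusted p = 0.41). The keratins of simple epithelia, low in muscle, fell furthest. Krt18 was at 1.48, 0.891, 3.76 and 1.97 CPM against 9.48 to 37.8 CPM, and Krt80 at 1.22, 0.924, 2.32 and 2.03 CPM against 7.77 to 21.8 CPM (log2FC -3.40 ± 0.46 and -3.30 ± 0.38). Krt8, the partner of Krt18, fell by 3.26 ± 0.49 (adjusted p = 0.00075). Mustn1, a small nuclear protein of the musculoskeletal system, was at 72 to 83.7 CPM against 178 to 318 CPM (-1.82 ± 0.22). The fall was shared by all 4 ASO1 libraries in each of these genes. Control 6, at 20970 CPM, had the lowest summed level of the list among the controls, below the 25330 to 26560 CPM of the others, and the ASO1 libraries had 16980 to 19590 CPM.

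Of 26 heat shock and chaperone genes 13 fell, 1 rose and 12 were not called (median -0.35), and 8 fell when ASO1 library 4 was left out. Among them are the small heat shock proteins, which keep desmin, actin and titin folded. Hspb8 was at 353, 384, 404 and 362 CPM against 519 to 920 CPM (log2FC -0.99 ± 0.15, adjusted p = 0.00064). Hspb1 was at 19.4, 18.8, 26.5 and 21.1 CPM against 40.9 to 63.9 CPM (-1.30 ± 0.19, adjusted p = 0.00068). Cryab, the desmin chaperone alpha B-crystallin, fell by 0.48 ± 0.09 but at 889 to 1097 CPM was still above the 627 ± 63.3 CPM of WT mice given ASO Control (log2FC 0.66 ± 0.10, adjusted p = 0.0046). The summed level of the list was 6965, 6509, 6431 and 6253 CPM with ASO1 against 8108 to 9854 CPM in the controls, and 4899 to 5980 CPM in WT mice given ASO Control. The 3 ranges did not overlap.

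Of 38 genes of integrins and of the costamere, the link of the sarcomere to the matrix, 11 fell and 5 rose. The falls were 7 without control 2 or without ASO1 library 1. Itgb1, integrin beta 1, was at 247, 258, 289 and 278 CPM against 326 to 458 CPM (log2FC -0.56 ± 0.08, adjusted p = 0.00067). The talins, which tie integrins to actin, moved apart, with Tln1 down by 0.48 and Tln2, the form of mature muscle, up by 0.45.

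**Figure D5:**
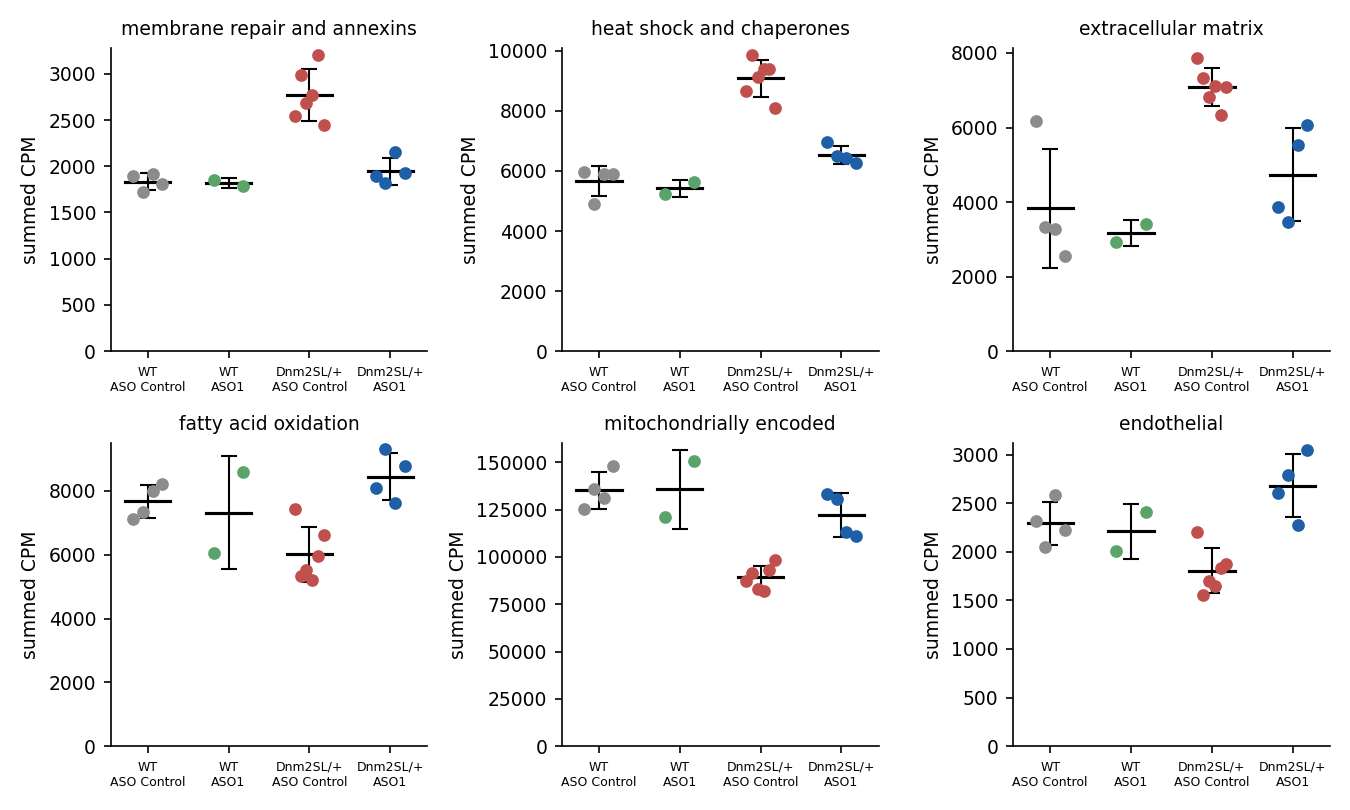
Summed level in CPM (y axis from 0) of 6 gene lists in every library of the 4 groups (x axis), with points for libraries, a bar for the mean and whiskers for the SD. The membrane repair and heat shock lists are lower in all 4 Dnm2SL/+ ASO1 libraries than in any Dnm2SL/+ ASO Control library, and the mitochondrially encoded, fatty acid oxidation and endothelial lists are higher.

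Denervated or immature fibres spread acetylcholine receptors beyond the synapse and switch on Myog and Ncam1. Of 23 genes of denervation and the neuromuscular junction 9 fell and 2 rose (median -0.32). Myog, the basic helix-loop-helix factor myogenin, was at 7.76, 6.63, 7.98 and 6.12 CPM with ASO1 and at a lowest of 15, a median of 37 and a highest of 56.7 CPM in the controls. All 4 ASO1 libraries lay below all controls (log2FC -2.33 ± 0.36, adjusted p = 0.0008), and WT mice given ASO Control had 5.93 ± 2.46 CPM. Ncam1, an adhesion molecule of denervated and regenerating fibres, was at 14, 8.84, 17.6 and 12.2 CPM against 31.4 to 57 CPM (-1.86 ± 0.19, adjusted p = 5.6e-05). Runx1, a transcription factor raised by denervation, was at 2.28 to 4.87 CPM against 6.93 to 22.9 CPM (-2.22 ± 0.30, adjusted p = 0.00038). Those 3 genes were apart from the controls in every library.

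The acetylcholine receptor subunits did not move alike. Chrnb1, the beta subunit, was at 40.7, 35.1, 42.2 and 41.9 CPM against 44.9 to 70.6 CPM (log2FC -0.62 ± 0.11, adjusted p = 0.002). Chrnd, the delta subunit, was at 5.59, 10.1, 12.9 and 7.83 CPM against 20.4 to 46.5 CPM (-1.86 ± 0.35, adjusted p = 0.0025). Chrna1, the alpha subunit, was at 29.2 to 35.1 CPM against 44.6 to 77.7 CPM (-0.81 ± 0.25, adjusted p = 0.04). The call for Chrna1 was lost, with an adjusted p of up to 0.106, when any of controls 2, 4 and 5 or any of the 4 ASO1 libraries was left out, though the groups did not overlap. Chrne, the subunit of the adult synapse, was at 22.8 to 35.7 CPM against 18.2 to 30.5 CPM and was not called (0.18 ± 0.20, adjusted p = 0.62). Chrng, its fetal counterpart, was at or under 2.34 CPM in every library and was not called (-1.62 ± 0.64, adjusted p = 0.1). It was called lower without control 1 alone (-1.86, adjusted p = 0.0181) and without controls 1 and 6 (-1.88, adjusted p = 0.0222).

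Myogenin and its relatives bind the E-box, a sequence of the letters CANNTG, so the bases before the start of 3 called genes of this list are shown with that motif in capitals. They are Myog itself and the receptor subunits Chrna1 and Chrnb1, read from RefSeq (GRCm38.p6) as the 250 bases up to the start, 5′ to 3′ on the strand of the gene. The windows are chr1:134289754-134290003 on the plus strand for Myog, chr2:73580339-73580588 on the minus strand for Chrna1 and chr11:69795938-69796187 on the minus strand for Chrnb1.
Myog: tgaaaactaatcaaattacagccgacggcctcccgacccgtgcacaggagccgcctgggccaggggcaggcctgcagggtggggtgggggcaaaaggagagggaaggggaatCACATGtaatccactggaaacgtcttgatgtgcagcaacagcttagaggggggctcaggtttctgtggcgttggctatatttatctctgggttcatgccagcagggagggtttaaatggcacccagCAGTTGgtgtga
Chrna1: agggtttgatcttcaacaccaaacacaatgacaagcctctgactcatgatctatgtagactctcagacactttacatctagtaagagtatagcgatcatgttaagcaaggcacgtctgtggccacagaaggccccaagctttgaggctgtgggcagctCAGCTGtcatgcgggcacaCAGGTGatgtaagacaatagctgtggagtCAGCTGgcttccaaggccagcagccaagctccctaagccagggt
Chrnb1: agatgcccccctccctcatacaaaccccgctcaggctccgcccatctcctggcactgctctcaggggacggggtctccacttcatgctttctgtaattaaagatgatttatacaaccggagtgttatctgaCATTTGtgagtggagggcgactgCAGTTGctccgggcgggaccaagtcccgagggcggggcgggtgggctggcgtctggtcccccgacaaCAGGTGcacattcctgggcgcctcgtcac
Myog had 2 matches, which began at -138 and -12 from the start, and Chrna1 had 3, at -92, -73 and -44, of which 2 read CAGCTG. Chrnb1 had 3, at -119, -96 and -29. CANNTG and CAGCTG read the same on both strands, and every CAGCTG is also a CANNTG. Of the 9 called genes of the list that fell, 6 were found among the 32851 promoters of the table. Of the genes found and not shown, Gadd45a had 1 match, Hdac4 had 0, and Runx1, with 2 starts, had 3 before one and 0 before the other. Among all of those 66.2% of the windows of the same length held CANNTG, 13% held CAGCTG and 12.2% held 3 or more CANNTG, with a median of 1. The matches describe these letters and are not measured binding sites.

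The list of embryonic and regeneration genes had 9 falls and 1 rise among 19 genes (median -0.63), the rise being Actc1. The falls included Myog, Ncam1, Nes and Des, given above. The remaining 9 were not called, among them the embryonic myosin Myh3 (log2FC -0.02), Myod1 (-0.52), Mymk (-1.50) and Igf2 (0.45). Among the satellite cell genes, the markers of muscle stem cells, 2 of 18 rose and 2 fell. The rises were Sdc3 (0.58) and Notch1 (0.32) and the falls Itga7 (-0.55) and Cdh15 (-0.42). The call for Notch1 was kept in 11 of 20 alternatives. It was lost without any of controls 1 to 5 or ASO1 libraries 2 and 3, with an adjusted p of up to 0.17. The log2FC was positive for 11 of the 18, with a median of 0.27. Pax7 and Myf5, of the same list, were not called (log2FC -0.03 and -0.25). The summed level of the list was 359 to 401 CPM with ASO1 and 393 to 453 CPM in the controls.

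Contractile and calcium handling genes moved in both directions. Of 19 genes of fast fibres 8 rose and 1 fell (median 0.29). For ASO1 against ASO Control in WT mice the median was 0.223, and the interaction called 0 of these genes. The rises were between 4 and 10 when 1 library was left out, with 4 without ASO1 library 1 and 5 without control 2, control 4 or ASO1 library 3. Mybpc2, fast myosin-binding protein C, was at 5057, 4558, 5317 and 5258 CPM against 2312 to 3531 CPM in the controls (log2FC 0.74 ± 0.12, adjusted p = 0.001). Myh4, the myosin of the fastest fibres, was at 27610, 21290, 30280 and 28600 CPM against 16840 to 22900 CPM, so that ASO1 library 2 lay among the controls (0.52 ± 0.12, adjusted p = 0.011). Pvalb, the calcium buffer parvalbumin, was at 6153 to 7633 CPM against 4276 to 5381 CPM, and Casq1, calsequestrin of the fast reticulum, at 3246 to 3792 CPM against 2491 to 2883 CPM (0.51 ± 0.10 and 0.41 ± 0.08). Myh2, the myosin of fast oxidative fibres, was at 3175, 1480, 1739 and 1211 CPM against 206 to 1467 CPM. It was called (1.53 ± 0.47, adjusted p = 0.038), but the call was lost without any of controls 2 to 5 or ASO1 libraries 1 to 3, with an adjusted p of up to 0.145. In the same list Myh1 fell by 0.38 ± 0.12 (adjusted p = 0.049), a call kept in 7 of 19 alternatives.

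Of 34 triad and calcium handling genes 13 rose and 7 fell. Jph1, which holds the triad membranes together, was at 427, 357, 459 and 395 CPM against 257 to 305 CPM (log2FC 0.50 ± 0.08, adjusted p = 0.0012). Cacng1, the gamma subunit of the T-tubule calcium channel, was at 202, 205, 173 and 181 CPM against 225 to 343 CPM (-0.68 ± 0.13, adjusted p = 0.0024). Both were apart from the controls in every library, in opposite directions. Sln, sarcolipin, a small inhibitor of the reticulum calcium pump, was at 9.24, 14, 3.37 and 5.29 CPM against 12.1 to 80.5 CPM (-2.26 ± 0.50, adjusted p = 0.0068). Only ASO1 library 2 reached the control range. WT mice given ASO Control had 0.906 ± 0.0919 CPM, below the ASO1 libraries (log2FC 3.13 ± 0.64, adjusted p = 0.015). The pump of fast fibres, Atp2a1, rose by 0.29 ± 0.09 (adjusted p = 0.037), and this call was lost without any of controls 2 and 4 or ASO1 libraries 1, 2 and 3.

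The slow fibre genes went both ways, with 2 rises and 4 falls among 17. Tnni1, slow troponin I, was at 6.32, 8.64, 18.5 and 13.6 CPM against 31.8 to 60.1 CPM (log2FC -1.82 ± 0.35, adjusted p = 0.0028), and Myl3, the slow essential light chain, at 266, 80.6, 98.2 and 127 CPM against 17.2 to 84.8 CPM (1.75 ± 0.45, adjusted p = 0.015). The groups were apart for Tnni1 and overlapped for Myl3, whose adjusted p was 0.08 without ASO1 library 1. The slow myosin Myh7 was at 4.44 to 42.7 CPM against 7.84 to 89.5 CPM and was not called (-0.35 ± 0.70, adjusted p = 0.79). The falls of this list were 2 without control 2, control 4, ASO1 library 1 or ASO1 library 4.

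Energy metabolism moved upward. There were rises among the mitochondrially encoded genes tested, the nuclear respiratory genes, fatty acid oxidation and glycolysis, and no member of these 5 lists was called lower. The log2FC was negative, without a call, for 3 of 42 genes of complexes II to V and 5 of 31 of glycolysis and glycogen. Of the 13 mitochondrially encoded genes of the list 7 were tested, and all 7 rose (median 0.43). The others had almost no counts or were not in the table, so the share of mitochondrial counts given above is only a part. mt-Co1, a catalytic subunit of complex IV, was at 31560, 34140, 26470 and 28070 CPM against 18810 to 23330 CPM (log2FC 0.52 ± 0.10, adjusted p = 0.0029). mt-Nd5, a subunit of complex I, was at 14490, 14130, 12270 and 12460 CPM against 7513 to 8911 CPM (0.67 ± 0.09, adjusted p = 0.00038). The summed level of the 7 genes was 111300 to 133500 CPM with ASO1, above the 81880 to 98200 CPM of the controls, and 125400 to 148100 CPM in WT mice given ASO Control.

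Of the nuclear genes of complex I 11 of 36 rose, and of those of complexes II to V 14 of 42, with medians of 0.21 and 0.23. For ASO1 against ASO Control in WT mice these medians were 0.197 and 0.153, from 2 ASO1 libraries. The interaction called 0 genes of either list. The WT medians of the mitochondrially encoded, fatty acid oxidation and glycolysis lists were -0.002, -0.007 and 0.045. All 36 complex I genes had a positive log2FC. Sdha, the flavoprotein of complex II, was at 1443, 1491, 1329 and 1310 CPM against 906 to 1131 CPM (log2FC 0.46 ± 0.07, adjusted p = 0.00067). Ndufs1, the largest subunit of complex I, was at 660 to 792 CPM against 510 to 580 CPM (0.37 ± 0.06, adjusted p = 0.0016). The changes were small beside the spread of some libraries, and the counts moved with them. The complex I rises were 5 without ASO1 library 2, 7 without ASO1 library 1 and 17 without control 6. Those of complexes II to V were 5 and 6 without ASO1 libraries 2 and 1, 8 without control 4 and 23 without control 6. Without controls 1 and 6 they were 25 and 29.

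Fatty acid oxidation had 21 rises among 31 genes (median 0.50), and all 31 had a positive log2FC. Cpt1b, the muscle form of the enzyme that admits fatty acids to mitochondria, was at 17.5, 15.7, 17.5 and 18.9 CPM against 10.4 to 14 CPM (log2FC 0.53 ± 0.10, adjusted p = 0.0033). Etfdh, which passes the electrons of fat oxidation to the respiratory chain, was at 245, 265, 204 and 246 CPM against 145 to 185 CPM (0.55 ± 0.09, adjusted p = 0.0016), and Eci1, an isomerase of unsaturated fats, rose by 0.59 ± 0.10. In each of the 3 genes the groups were apart. Without ASO1 library 2 the rises were 12, and without controls 1 and 6 they were 28. The summed level was 8105, 9309, 7613 and 8774 CPM with ASO1 against 5217 to 7446 CPM in the controls.

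Of 31 genes of glycolysis and glycogen 15 rose (median 0.26). Pygm, muscle glycogen phosphorylase, was at 6445, 5930, 7049 and 6641 CPM against 4115 to 5114 CPM (log2FC 0.49 ± 0.08, adjusted p = 0.0016). Gpd1, the cytosolic glycerol phosphate dehydrogenase, was at 606 to 770 CPM against 323 to 513 CPM (0.76 ± 0.12, adjusted p = 0.00078). Fbp2, muscle fructose bisphosphatase, was at 37.8 to 56 CPM against 16.8 to 27.4 CPM (0.99 ± 0.17, adjusted p = 0.0016). The 3 genes were higher in all 4 ASO1 libraries. Without control 2 the rises were 9, and without ASO1 library 1 they were 7.

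Of 42 extracellular matrix genes tested 13 fell and none rose, 38 had a negative log2FC, and the median was -0.73. Cilp, a matrix protein of cartilage and of scarred muscle and heart, was at 174, 123, 190 and 99 CPM with ASO1 and at a lowest of 278, a median of 1011 and a highest of 1186 CPM in the controls. Control 6 was the lowest, and the fall was 2.61 ± 0.42 on the log2 scale (adjusted p = 0.0011). WT mice given ASO Control had 29.0 ± 17.1 CPM, below the ASO1 libraries (log2FC 2.33 ± 0.44, adjusted p = 0.01). Timp1, an inhibitor of matrix proteases, was at 1.88, 1.25, 5.33 and 3.29 CPM against 15.8 to 21 CPM (-2.62 ± 0.40, adjusted p = 0.00081). Postn, periostin, was at 11.3, 14.5, 20.6 and 27.2 CPM against 42.7 to 67.2 CPM (-1.52 ± 0.29, adjusted p = 0.003). The main fibril collagens were not called. Col1a1 was at 416, 111, 511 and 348 CPM against 368 to 796 CPM (-0.51 ± 0.38, adjusted p = 0.42), and Col3a1 at 212, 284, 544 and 971 CPM against 742 to 1000 CPM (-0.73 ± 0.36, adjusted p = 0.19). ASO1 library 4 had the most Col3a1 of its group, and without it Col3a1 was called (adjusted p = 0.0203).

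The summed level of the matrix list was 3879, 3479, 5527 and 6059 CPM with ASO1 against 6345 to 7859 CPM in the controls, and 2546 to 6162 CPM in WT mice given ASO Control. The falls were 8 without control 2, ASO1 library 1 or ASO1 library 2, and 20 without ASO1 library 4. Of 17 genes of fibro-adipogenic progenitors, the connective tissue cells of muscle, 3 fell and none rose (median -0.27), and of 10 tendon genes 2 fell (median -0.68). The summed level of the progenitor list was 893 to 1447 CPM with ASO1 and 1415 to 1827 CPM in the controls, and that of the tendon list 64.8 to 416 and 261 to 663 CPM. Of 23 macrophage genes 2 fell and 22 had a negative log2FC, with a summed level of 73.2 to 166 CPM against 113 to 219 CPM. The 2 falls stand beside the 8.06% of all genes that fell, and there were 0 with a replicate block. Controls 1 and 6 had the highest macrophage sums, at 219 and 213 CPM, and without both the median of the list went from -0.36 to 0.024. None of the 10 tested of 19 lymphocyte and neutrophil genes was called, and the T cell marker Cd3e had too few counts to be tested. The part of these cells in the matrix result was not tested.

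Of 18 endothelial markers 8 rose, none fell and all 18 had a positive log2FC (median 0.43). Aqp1, the water channel of capillaries, was at 1317, 1061, 1064 and 1406 CPM against 599 to 990 CPM (log2FC 0.72 ± 0.14, adjusted p = 0.0031). Flt1, a receptor of vascular endothelial growth factor, was at 172, 154, 154 and 145 CPM against 74.1 to 121 CPM (0.65 ± 0.14, adjusted p = 0.0053). In Cdh5, the cadherin of endothelial junctions, ASO1 library 3 at 134 CPM lay within the 109 to 146 CPM of the controls (0.61 ± 0.13, adjusted p = 0.0056). The summed level of the list was 2281 to 3051 CPM against 1553 to 2209 CPM, and 5 markers rose when ASO1 library 4 was left out. Pericyte and smooth muscle genes had 2 rises and 1 fall among 15, adipocyte genes 1 rise among 14 and Schwann cell genes 1 fall among 13.

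Targets and members of the p53 pathway had 7 falls and 2 rises among 20, and 4 falls without control 2, control 4 or ASO1 library 1. Eda2r, given above, fell the most. Cdkn1a, the cell cycle inhibitor p21, was at 38.9, 138, 86.5 and 50.9 CPM against 139 to 239 CPM (log2FC -1.35 ± 0.29, adjusted p = 0.0053). Trp53 itself, which encodes p53, was at 11.1 to 13.3 CPM against 13.7 to 20.3 CPM (-0.55 ± 0.12, adjusted p = 0.0053). ASO1 library 2 came closest to the controls in Cdkn1a. Ccng1, of the same list, went the other way and was called higher under all 20 alternatives, with a log2FC of 0.30 to 0.34.

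Immediate early genes, which are switched on within minutes of a stimulus, had 8 falls and no rise among 24 (median -0.64). Their counts rested on single libraries, with 3 falls without control 3, ASO1 library 1 or ASO1 library 4, 4 without control 2 or 4 and 5 without ASO1 library 3. Fos was at 1.97, 4.35, 8.93 and 3.61 CPM against 4.13 to 122 CPM, and Fosb at 0.197 to 1.16 CPM against 0.34 to 38.6 CPM. Both overlapped the controls. Their adjusted p-values of 0.046 and 0.048 passed the threshold but both calls were lost without any of controls 2 to 4 or any ASO1 library. Without control 4 the log2FC of Fosb went from -3.80 to -1.79 and that of Fos from -2.95 to -2.03. Egr3 was at 0.297 to 1.54 CPM against 1.84 to 7.08 CPM (log2FC -2.44 ± 0.52, adjusted p = 0.0056), with no overlap.

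The remaining lists had at most 8 calls each, which stand beside the 15% of all genes that were called. Protein breakdown genes had 2 rises and 4 falls among 25, and the atrophy ligases Trim63 and Fbxo32 were not called (log2FC -0.62 ± 0.25 and -0.19 ± 0.16, adjusted p = 0.11 and 0.48). Trim63 was called lower without ASO1 library 3 (-0.89, adjusted p = 0.0254) and with a replicate block. Autophagy and lysosome genes had 3 rises and 5 falls among 36, with Ulk1, which starts autophagy, at 0.43 and the lysosomal enzyme Hexa at -0.70. Polyamine genes had 2 rises and 1 fall among 18. Smox, spermine oxidase, was at 283, 135, 368 and 300 CPM against 58.7 to 192 CPM (1.32 ± 0.30, adjusted p = 0.0073). Metallothionein and oxidative stress genes had 1 rise and 4 falls among 21. Mt3, a metallothionein, was at 1.35, 1.42, 4.84 and 5.7 CPM against 9.1 to 25.1 CPM (-2.34 ± 0.39, adjusted p = 0.0013). Proliferation genes had 1 rise and 4 falls among 23, and no fall without control 2, control 4 or ASO1 library 1. Circadian clock genes had 3 rises among 19, and 1 without control 2, 3 or 4 or ASO1 library 1. The integrated stress list had 2 falls among 23 and the cytosolic ribosome list 1 rise and 1 fall among 30.

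Leaving out controls 1 and 6 together also moved small counts by more than 1.5 times. The rises went from 2 to 6 for protein breakdown, from 2 to 4 for polyamine and for p53 genes, from 1 to 4 for metallothionein and oxidative stress, from 3 to 5 for the clock and from 1 to 3 for proliferation and for adipocyte genes. Those of the myostatin list went from 1 to 2. The falls went from 4 to 1 for proliferation, from 2 to 1 for tendon, and from 1 to 2 for polyamine and for fast fibre genes. The integrated stress list gained 1 rise, the clock list gained 1 fall and the ribosome list lost its 1 fall.

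No interferon response gene of 34 was called, nor any of 5 erythroid genes. Control 1 decided both. Its summed interferon level was 1060 CPM, against 347 to 403 CPM in the other controls and 389 to 519 CPM with ASO1, and without it 7 interferon genes and 5 erythroid genes rose. The interferon-induced gene Ifit1 was at 2.51 to 3.24 CPM with ASO1 and 1.61 to 6.11 CPM in the controls (log2FC 0.12 ± 0.34, adjusted p = 0.854), and was called without controls 1 and 6 (0.66, adjusted p = 0.0331).

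The libraries of WT mice show what ASO1 did outside the disease. Against WT ASO Control, WT ASO1 had no called gene by edgeR (0%), with 1605 genes at an unadjusted p under 0.05, while DESeq2 called 97 and voom 0. With 2 WT ASO1 libraries the comparison is much less precise than that in Dnm2SL/+ muscle, where 4514 genes were under 0.05 unadjusted. The difference was tested directly as the interaction, which called 442 genes (2.82%), 138 with a higher and 304 with a lower log2FC in Dnm2SL/+ than in WT. The number moved by more than 1.5 times without any of WT ASO Control 3 and 4, WT ASO1 1, controls 1 to 5 or ASO1 libraries 1 and 2, and lay between 30 (without WT ASO1 1) and 706 (without control 1). By smallest p the leading genes were Cav3 (interaction -0.996), Mvp, the major vault protein (-1.18), Tspo, a protein of the outer mitochondrial membrane (-1.71), and Cd63, Rnh1 and Ankrd10. Tspo was at 15.2, 18.2, 22.6 and 21.6 CPM with ASO1 against 43.7 to 64.6 CPM in the Dnm2SL/+ controls, and the WT means were 10.6 ± 1.48 CPM with ASO Control (SD, n = 4) and 12.6 ± 0.285 CPM with ASO1 (SD, n = 2).

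Set beside WT mice given ASO Control, the ASO1 libraries differed in 707 genes (4.52%), of which 260 were higher and 447 lower. Among those with a log2FC beyond 1 in size, 87 were higher and 33 lower. This comparison shares the 4 ASO1 libraries with the one above, so neither supports the other. Leaving out 1 library at a time gave 189 to 975 genes. It was 189 without ASO1 library 4, 194 without ASO1 library 2, 225 without WT ASO Control 3 and 241 without WT ASO Control 4.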

How the data were processed

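Muscle RNA was isolated with TRI Reagent and turned into stranded mRNA libraries. Per the labels, reads were handled with cutadapt 1.10, Bowtie2 2.2.8 and STAR 2.5.3a on GRCm38 (mm10), HTSeq 0.6.1p1 counted them, and the authors deposited raw counts for 30037 genes, all of which had a symbol in GENCODE M21. Which annotation release and strand setting the counting used is not given in the sources used here, so overlapping genes are uncertain. The submitters later corrected the label of 1 WT ASO Control library, and it was read as corrected.

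The filterByExpr rule by group kept 15649 genes (52.1%). The quasi-likelihood test of edgeR 4.0.16 (R 4.3.3) was run on TMM-scaled counts of all 16 libraries with 1 mean per group. A gene was called at an adjusted p (Benjamini-Hochberg) below 0.05. Standard errors are the size of the log2FC divided by the root of its F statistic. Levels are CPM after TMM, and log2 CPM for principal components had a prior count of 2. The procedure was tested on simulated data.

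Genes named by rule were Dnm2, the 15 largest rises and falls as ranked above, the 4 lowest-p members per list and the 6 genes with the smallest interaction p, 182 in all, of which 11 share exon sequence with a gene on their own strand and 50 with one on the opposite strand. Myh1, Myh2, Myh7, Sln, Atp2a1, Chrna1, Chrnd, Chrne, Chrng, Krt8, Anxa2, Dysf, Fos, Fosb, Col1a1, Col3a1, Trim63, Fbxo32, Mtm1, Dnm3 and Ifit1 were chosen after their values were seen. The 41 lists held 904 genes, of which 872 were tested. The lists and the comparison were chosen with earlier results of these data known. Alternatives were RLE and upper-quartile scaling, other filters, DESeq2 1.42.0, voom with quality weights (limma 3.58.1), a replicate block, removal of the 20 most counted genes, a fit of only the groups compared and leaving out each library.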

Additional observations from a re-analysis of the deposited data

Results flagged for a closer look

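Of 150 groups of 4 or 6 libraries examined, 6 had a highest or lowest library far from the rest, where chance gives about 1 in 20. Among the ASO Control libraries of Dnm2SL/+ mice, number 6 was low in Cilp (277.7 CPM against 696.5 to 1186 CPM in the others) and in the summed level of intermediate filaments and stretch genes (20970 CPM). Number 1 was high in the interferon response list (1060 CPM against 346.7 to 403.4 CPM) and low in the integrated stress list (642.5 CPM against 712.9 to 749.9 CPM). Number 3 was high in Schwann cell genes (293.6 CPM against 106 to 130.7 CPM). On the first principal component ASO1 library 3 lay at -22.5, toward the controls, against -37.6 to -36.4 for the other 3.

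The effect of ASO1 differed between Dnm2SL/+ and WT, by the interaction test of edgeR with an adjusted p under 0.05, in 47 of the genes named, beside 2.82% of all genes. The named genes include the 6 with the smallest interaction p, and most of the others were chosen by their p or log2FC in Dnm2SL/+, so the number is in part set by that choice and nothing is read from it. In 35 of them the log2FC was lower in Dnm2SL/+ than in WT. The larger interaction values (log2FC in Dnm2SL/+ minus that in WT) were Krt80 -2.99, Dtl -2.97, Eda2r -2.44, Mt2 -2.42, Myog -2.40, Runx1 -2.37, Il20rb -2.18, Ahnak2 -2.07, Postn -1.99, Cdkn1a -1.85, Tspo -1.71, Ncam1 -1.60, Scx -1.58 and Anxa2 -1.53. The smaller were Nes -1.44, S100a13 -1.28, Mvp -1.18, Ankrd10 -1.16, Cacng1 -1.14, Hspb8 -1.10, Rnh1 -1.04, Cavin4 -1.02, Cd63 -1.01, Cav3 -0.996, Hspb3 -0.97, Des -0.81, Chrnb1 -0.78, Hexa -0.77, Bin1 -0.64, Gpx1 -0.64, Dysf -0.62, Trim72 -0.61, Itgb1 -0.56, Cttn -0.47 and Pacsin3 -0.43. In 12 genes the log2FC was higher in Dnm2SL/+, and the values were Mstn 1.59, Adcy1 1.398, Mical2 1.12, Cpt1b 1.07, mt-Nd5 0.85, Tln2 0.58, Ulk1 0.55, Tecpr1 0.49, Speg 0.49, Itsn1 0.44, Rrm1 0.38 and Opa1 0.32. Each rests on 2 WT ASO1 libraries, and the number of interaction calls across all genes was 30 without the first of them.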

How the results depend on the processing

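For ASO1 in Dnm2SL/+ muscle the 2351 calls became 1651 to 2755 when 1 library was left out and 1837 to 2994 with the other scalings, filters, tools and fits, and 493 with a log2FC beyond 1 in size required. Without ASO Control libraries 1 and 6, an alternative chosen after seeing the data, the number was 3168. Dnm2 kept its direction and its call under all 20 alternatives, between -1.01 and -0.79. For ASO1 in WT, DESeq2 called 97 genes and leaving out 1 library gave 0 to 9. The 442 interaction calls became 274 with no filter, 1072 with DESeq2, 999 without controls 1 and 6, and 30 to 706 when 1 library was left out. A fit of only the groups compared is the same fit for the interaction and gave no further value. Dnm2SL/+ ASO1 against WT ASO Control gave 1281 genes with DESeq2, 215 with only the groups compared, and 189 to 975 when 1 library was left out, and the share that was higher moved from 36.8% to 48.3% with upper-quartile scaling. The cause of these differences was not tested.

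Libraries share replicate numbers across groups, but same-numbered libraries did not deviate together (correlation 0.0413, -0.0489, -0.0286 and -0.171 for numbers 1 to 4), so the numbers were not taken as a pairing. With a replicate block the calls were 1837 for ASO1 in Dnm2SL/+, 115 for the interaction and 446 for Dnm2SL/+ ASO1 against WT ASO Control, and 14 of the 182 named genes were no longer called. Among the named genes Myh7, which was not called, changed direction, from a log2FC of -0.35 to 0.046 with voom, 0.60 with the replicate block, 0.70 without control 6 and 0.58 without controls 1 and 6, and the other named genes kept theirs under the alternatives run. Depth limits genes such as Krt8 and Fosb, which were under 1 CPM in some libraries, and the 2 WT ASO1 libraries limit the interaction.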
